A study of Mus musculus with 9 samples.

Results

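The genes described here are the axon guidance ligands and receptors of the mouse, chosen by name. They are the Eph receptors and ephrins, the semaphorins of classes 3 to 7 with their plexin and neuropilin receptors, the Slits and Robos, and the netrins with Dcc and Unc5. Of the 25239 gene names in the tables, 69 belonged to these families, 35 of them ligands and 34 receptors. The names alone chose them and no measured value did. Their RNA was measured by bulk RNA-Seq of whole retinas of C57BL/6J mice at P42, with the pair of retinas of 1 mouse in each library. There were 3 libraries from +/+ mice, 3 from mice with 1 knock-in allele (Rbpms-CreERT2/+, or Cre/+) and 3 from mice with 2 knock-in alleles (Rbpms-CreERT2/CreERT2, or Cre/Cre), and mice of the same litters served as the +/+ controls. The knock-in places P2A and CreERT2, a Cre recombinase that needs tamoxifen to act, in frame at the end of Rbpms, so Cre follows Rbpms, which marks retinal ganglion cells (RGCs) and is also used by smooth muscle cells. The labels name no tamoxifen treatment, no floxed allele and no sex, and the 3 genotypes were compared to ask whether the knock-in allele itself altered retinal RNA.

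Axon guidance genes encode proteins by which a growing axon reads its surroundings. A ligand, secreted or held on a neighbouring cell, binds a receptor on the growth cone and attracts or repels it. Ephrins are bound to membranes and are read by Eph receptors, and their graded levels across the retina and its brain targets order the map of RGC axons. Class 3 semaphorins are secreted and most of them need a neuropilin beside a plexin, while most other semaphorins bind plexins directly. Slits repel axons through Robo receptors, and netrins attract through DCC and repel through UNC5 proteins. Several of these proteins have further uses in the mature retina, among them the layering of neurites, synapses and blood vessels.

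All 69 names had a single row in each library, and their values are given as TPM, the share of all transcripts in a library after scaling for transcript length, so levels can be compared between genes. A mean of at least 1 TPM over the 9 libraries was required for testing, which 65 of the 69 genes and 15198 of all genes passed. The 4 others are Ntn1, the founding netrin, with values from 0.326 to 0.939 TPM, Ntn5, from 0.248 to 0.966 TPM, Slit3, from 0.180 to 1.06 TPM, and the plexin Plxnb3, listed at 0 to 0.151 TPM. The tables hold no read counts, and the deposited coverage of these genes was not examined. The depth behind such low values is therefore not given.

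Over the whole series, the aligned sequence implied by the coverage was 4.05 to 4.65 gigabases a library. Rbpms, the knock-in locus, was at 38.4 to 43.4 TPM in +/+, 31.3 to 33.1 TPM in Cre/+ and 19.1 to 24.2 TPM in Cre/Cre, and its order followed the labels. All 14 RGC markers passed the filter, and their summed level was 1975 to 2055 TPM in +/+, 1857 to 1948 TPM in Cre/+ and 1436 to 1733 TPM in Cre/Cre. Cre/Cre replicate 1 stood apart, with 9.21% of its TPM on Rn45s, a ribosomal RNA precursor, against 0.0827% to 0.336% in the other libraries, and with a median ratio of 0.918 of its genes to their geometric mean over libraries. Xist was at 2.08 to 3.16 TPM in Cre/+ replicate 3 and in Cre/Cre replicates 1 and 3 and at 516 to 585 TPM in the rest, so the sexes were not balanced between the genotypes.

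The adult retina held RNA of every guidance family, at levels that differed more than 100-fold between genes. The 69 genes had a median of 13.2 TPM. Those tested had one of 13.4 TPM, below the 26.5 TPM of all tested genes. Among the guidance genes, 5 reached a mean of 50 TPM, 20 reached 20 TPM and 41 reached 10 TPM, while 13 lay from 1 to under 5 TPM. The 10 highest genes made up 46.5% of the summed TPM of the 69. Levels below are given in the order of replicates 1, 2 and 3 of each genotype.

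**Figure D1:**
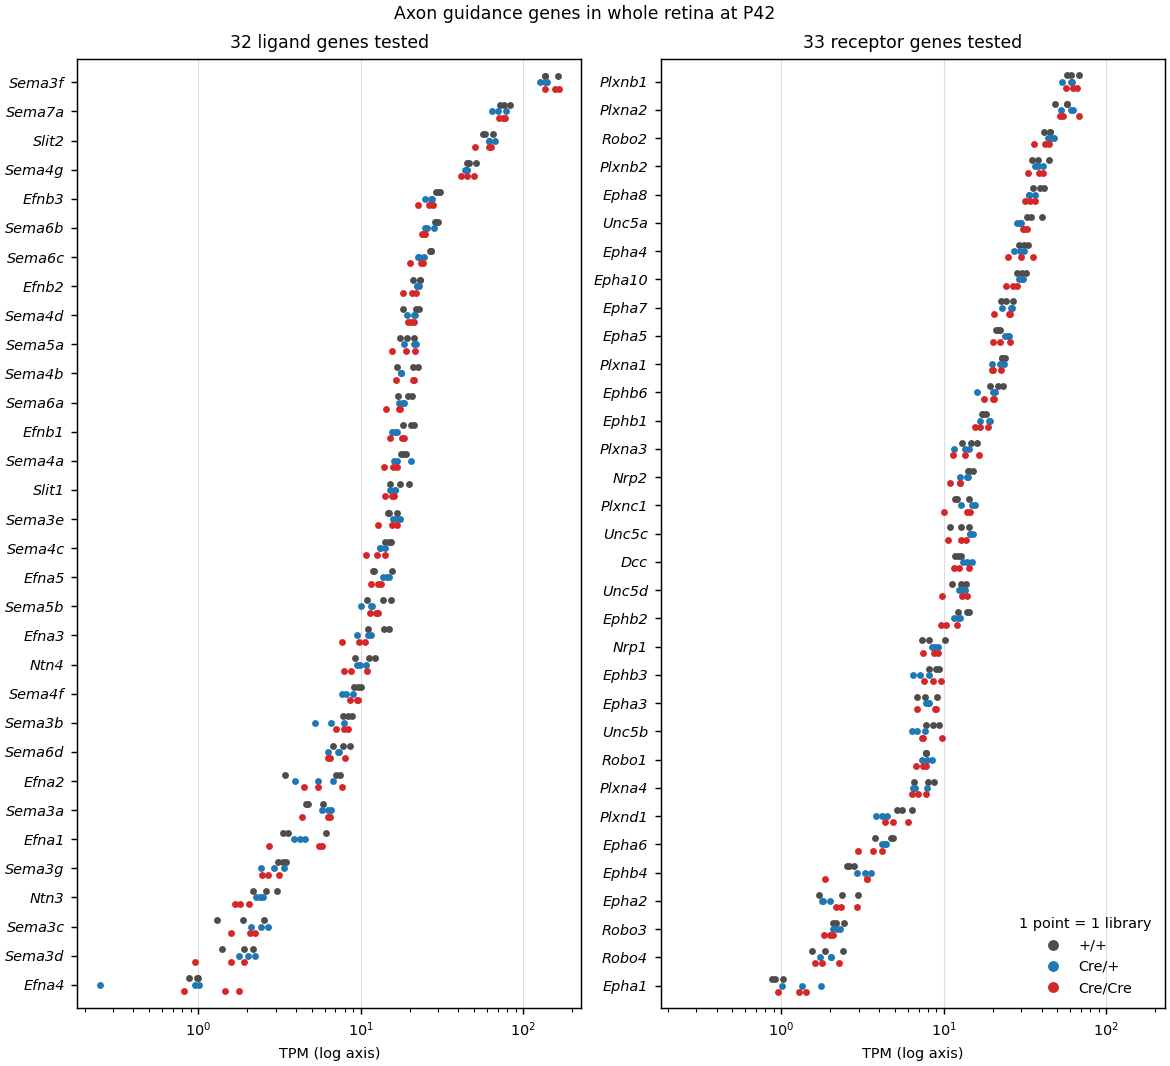
TPM (log axis) of the 65 tested guidance genes, ligands on the left and receptors on the right, each gene a row ordered by its mean and each point 1 library coloured by genotype. The order of genes is much the same in the 3 genotypes, from Sema3f at a mean of 144 TPM down to Efna4 at 1.02 TPM, and the colours of a row mostly overlap.

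Among the ligands, Sema3f, a secreted semaphorin read by neuropilin 2, was the highest, at 136, 137 and 164 TPM in +/+, 128, 136 and 139.9 TPM in Cre/+ and 158, 136 and 165 TPM in Cre/Cre. It exceeded the next gene in every library, and it alone gave 80.1% of the TPM of its 7-gene class. Sema7a, the semaphorin tethered by a lipid anchor, was at 82.6, 76.4 and 72.4 TPM in +/+, 64.5, 78.1 and 70.0 TPM in Cre/+ and 77.4, 70.6 and 75.2 TPM in Cre/Cre. Slit2, the main Slit of this tissue by level, was at 65.1, 58.5 and 56.6 TPM in +/+, 61.4, 61.8 and 67.3 TPM in Cre/+ and 50.3, 61.8 and 63.8 TPM in Cre/Cre. Sema7a was above Slit2 in each library, and the genotypes of all 3 ligands overlapped.

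Of the membrane-bound semaphorins, Sema4g was the highest of class 4, at 45.2, 46.8 and 51.1 TPM in +/+, 43.9, 45.0 and 45.0 TPM in Cre/+ and 45.0, 41.4 and 49.8 TPM in Cre/Cre. Sema6b, which binds class A plexins, led class 6 at 29.0, 28.6 and 30.1 TPM in +/+, 28.3, 25.6 and 24.9 TPM in Cre/+ and 23.9, 24.6 and 25.1 TPM in Cre/Cre. Sema5a led class 5 at 21.2, 17.5 and 19.3 TPM in +/+, 18.6, 21.4 and 21.8 TPM in Cre/+ and 15.6, 19.0 and 21.7 TPM in Cre/Cre. Sema6b was the only one of these 3 whose Cre/Cre values all lay below its +/+ values.

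The ephrins together came to 84.3 to 114 TPM a library. Efnb3, a transmembrane ephrin, was the highest, at 31.0, 30.2 and 29.3 TPM in +/+, 24.9, 27.2 and 27.5 TPM in Cre/+ and 22.7, 26.5 and 27.8 TPM in Cre/Cre, with both knock-in genotypes below +/+ in every library. Of the lipid-anchored ephrins, Efna5, a repellent in the retinal map, was the highest, at 15.6, 11.9 and 12.1 TPM in +/+, 15.0, 14.6 and 13.7 TPM in Cre/+ and 11.5, 13.4 and 12.8 TPM in Cre/Cre. Netrin RNA was low, and Ntn4, a netrin found in basement membranes, gave most of it at 9.2, 12.2 and 11.2 TPM in +/+, 10.8, 9.53 and 9.94 TPM in Cre/+ and 8.74, 11 and 7.88 TPM in Cre/Cre. Efna5 and Ntn4 overlapped between every pair of genotypes except for Efna5 between Cre/+ and Cre/Cre.

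Among the receptors, 2 plexins had the highest means. Plxnb1, a receptor of class 4 semaphorins, was at 60.6, 57.1 and 67.8 TPM in +/+, 53.2, 61.4 and 60.7 TPM in Cre/+ and 62.5, 56.9 and 66.3 TPM in Cre/Cre. Plxna2, a receptor of class 6 semaphorins, was at 57.1, 48.3 and 57.2 TPM in +/+, 52.9, 60.3 and 62.8 TPM in Cre/+ and 54.3, 51.9 and 67.6 TPM in Cre/Cre. The means of these 2 plexins over all libraries, 60.7 and 56.9 TPM, differed by less than the spread of either. Plxnb2 was at 35.0, 38.0 and 44.7 TPM in +/+, 38.0, 36.4 and 41.0 TPM in Cre/+ and 32.8, 38.4 and 40.9 TPM in Cre/Cre. The remaining plexin classes were lower, led by Plxnc1, the receptor of Sema7a, at 14.2, 11.7 and 12 TPM in +/+, 12.9, 15.0 and 15.5 TPM in Cre/+ and 10.1, 13.8 and 14.6 TPM in Cre/Cre.

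Robo2, a Slit receptor of RGC axons, was at 44.9, 44.8 and 41.3 TPM in +/+, 45.7, 43.9 and 47.8 TPM in Cre/+ and 36.0, 42 and 44.3 TPM in Cre/Cre, and it made up 78.8% of the TPM of the 4 Robo genes. Unc5a, a netrin receptor, was at 32.6, 34.6 and 40.2 TPM in +/+, 28.3, 30.0 and 29.3 TPM in Cre/+ and 31.3, 30.5 and 32.5 TPM in Cre/Cre. Every knock-in value of Unc5a lay below its lowest +/+ value. Nrp2, the neuropilin that serves Sema3f, was at 14.3, 14.2 and 15.1 TPM in +/+, 14.1, 12.6 and 14.0 TPM in Cre/+ and 10.9, 12.6 and 12.7 TPM in Cre/Cre, so the ligand Sema3f stood well above this receptor in every library.

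The 14 Eph receptors were all above the filter and summed to 189 to 234 TPM a library. Epha8 was the highest, at 39.1, 35.2 and 41.5 TPM in +/+, 33.5, 33.3 and 36.4 TPM in Cre/+ and 31.5, 36.3 and 34.0 TPM in Cre/Cre. Ephb6, an Eph receptor that lacks kinase activity, led the B class at 21.6, 19.4 and 23.2 TPM in +/+, 16.1, 20.7 and 20.2 TPM in Cre/+ and 17.8, 20.4 and 20.2 TPM in Cre/Cre. For both receptors the +/+ range ran into those of the other genotypes.

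No guidance gene differed past an adjusted p of 0.05 in any of the 3 comparisons, by limma on log2(TPM + 1) with Benjamini-Hochberg adjustment over all 15198 genes. Of all genes, 0.00658% passed that limit in Cre/+ against +/+, 0.00658% in Cre/Cre against +/+ (the gene is Rbpms) and 0.0132% in Cre/Cre against Cre/+. The smallest adjusted p of a guidance gene was 0.377, 0.543 and 0.740 in these comparisons. The 95% intervals had a median half-width of 0.26 on the log2 scale of TPM + 1, which is 1.2-fold, and 0 of the 65 reached a 2-fold difference in any comparison. Efna4 and Epha1 passed the filter on low values only through the genotypes in which they were higher, with means of 0.955, 0.744 and 1.35 TPM and of 0.940, 1.37 and 1.22 TPM in +/+, Cre/+ and Cre/Cre. Over the other 63 genes the outermost bounds were -0.77, for Efna3 in Cre/Cre against +/+, and 0.69, for Epha2 in Cre/Cre against Cre/+. For genes near 1 TPM this scale understates the fold.

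In Cre/+ against +/+, the lowest p-values belonged to a netrin receptor, an ephrin, a plexin and 2 semaphorins, each with a lower mean in Cre/+. At an unadjusted p under 0.05 there were 5 genes of 65, or 7.69%, while 10.7% of all tested genes passed that limit, 4.90% with a higher and 5.82% with a lower level. All 5 were lower, so 7.69% of the guidance genes stand beside the 5.82%. Leaving out single libraries gave 1 to 8 such genes, with 1 without +/+ replicate 3 or without Cre/+ replicate 3, 2 without +/+ replicate 1, 3 without Cre/+ replicate 2 and 8 without Cre/Cre replicate 1. When the level of Xist entered the model there were 2, and with median-ratio scaling 9. After the adjustment for base composition given further on there were 0, beside 6.45% of all genes. The share of all genes under the other settings is not given here, so those counts are not compared with it. The median difference of the 65 genes was -0.08 log2, against 0.00 for all genes, and 41 of 65 lay below 0, against 49.6% of all genes. The 32 ligands had a median of -0.10 and the 33 receptors one of -0.01. Between libraries of a genotype, the median deviation of the guidance genes from the mean of 9 had an SD of 0.08 log2.

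Unc5a, on chr13:54949411-55006018 of mm10, had the smallest p. With the library values given above, its mean was 35.8 ± 3.96 TPM (SD, n = 3) in +/+ and 29.2 ± 0.867 TPM in Cre/+, a log2 difference of -0.28 ± 0.09 (SE), with an adjusted p of 0.377 by limma. Efnb1, an ephrin on the X chromosome, was at 21.3, 18.3 and 20.3 TPM in +/+ and 16.4, 16.8 and 15.6 TPM in Cre/+, a difference of -0.28 ± 0.11 log2 (adjusted p = 0.404). The 3 values of each genotype did not overlap for either gene. In Cre/Cre, Efnb1 was at 15.2, 18.0 and 18.6 TPM, which ran into its +/+ range.

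Plxnd1, a plexin of blood vessels and a receptor of Sema3e, was at 5.55, 5.17 and 6.42 TPM in +/+ and 3.85, 4.47 and 4.18 TPM in Cre/+, a difference of -0.38 ± 0.16 log2 (adjusted p = 0.422). Sema6c was at 26.9, 27.2 and 27.3 TPM in +/+ and 24.6, 22.8 and 22.7 TPM in Cre/+, a difference of -0.21 ± 0.09 log2 (adjusted p = 0.452). Sema3b, the neighbour of Sema3f, was at 8.88, 7.78 and 8.34 TPM in +/+ and 7.89, 6.57 and 5.21 TPM in Cre/+, a difference of -0.32 ± 0.15 log2 (adjusted p = 0.460). Only for Sema3b among these 5 genes did a Cre/+ value reach into the +/+ range. In Cre/Cre, Plxnd1 was at 4.88, 5.99 and 4.38 TPM and Sema3b at 7.06, 8.37 and 7.91 TPM, and both overlapped +/+. The endothelial marker list of 10 genes bears on the vascular plexin. Its summed level was 230.2 to 247 TPM in +/+, 219.6 to 246 TPM in Cre/+ and 199 to 224 TPM in Cre/Cre. The Cre/Cre sums were thus below every +/+ sum. Kdr, with a mean of 104 TPM, made up much of the summed mean of 228 TPM. Of the 10 genes, 5 had a difference below 0 in Cre/Cre against +/+ and 5 above 0.

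The 3 Cre/+ values lay wholly outside the +/+ range for 14 of the 65 guidance genes, 10 lower and 4 higher. This stands beside 22.2% of all tested genes, 10.3% lower and 11.9% higher. The 4 higher guidance genes, named after their values were seen, are receptors, as are 4 of the 10 lower ones. Epha5, a receptor of the A class in RGCs, was at 22.1, 21.6 and 20.9 TPM in +/+ and 25.0, 23.8 and 25.2 TPM in Cre/+. Unc5c was at 14.3, 10.9 and 12.8 TPM in +/+ and 15.2, 14.4 and 14.5 TPM in Cre/+. Dcc, the attractive netrin receptor, was at 12.7, 11.8 and 12.2 TPM in +/+ and 13.9, 13.2 and 14.9 TPM in Cre/+. None of these had an adjusted p under 0.495 by limma, and the fourth, Ephb4, a receptor of blood vessels, was at 2.61, 2.82 and 2.54 TPM in +/+ and 3.57, 2.91 and 3.26 TPM in Cre/+.

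In Cre/Cre against +/+, the genes with the lowest p were an ephrin-A, 2 class 6 semaphorins, an EphB receptor and an ephrin-B, and again each had a lower mean in the knock-in. At an unadjusted p under 0.05 there were 7 genes of 65, or 10.8%, all lower, beside 6.97% of all tested genes, of which 5.39% were lower and 1.58% higher. The median difference of the 65 genes was -0.07 log2, against -0.02 for all genes, and 50 of 65 lay below 0, against 57.7% of all genes. The 3 Cre/Cre values lay wholly outside the +/+ range for 11 guidance genes, all lower, and for 10.8% of all genes, 8.05% lower and 2.70% higher. Those genes are Efna3, Sema6b, Sema6c, Ephb2, Efnb3, Nrp2, Sema4a, Unc5a, Ntn3, Plxna1 and Robo1.

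**Figure D2:**
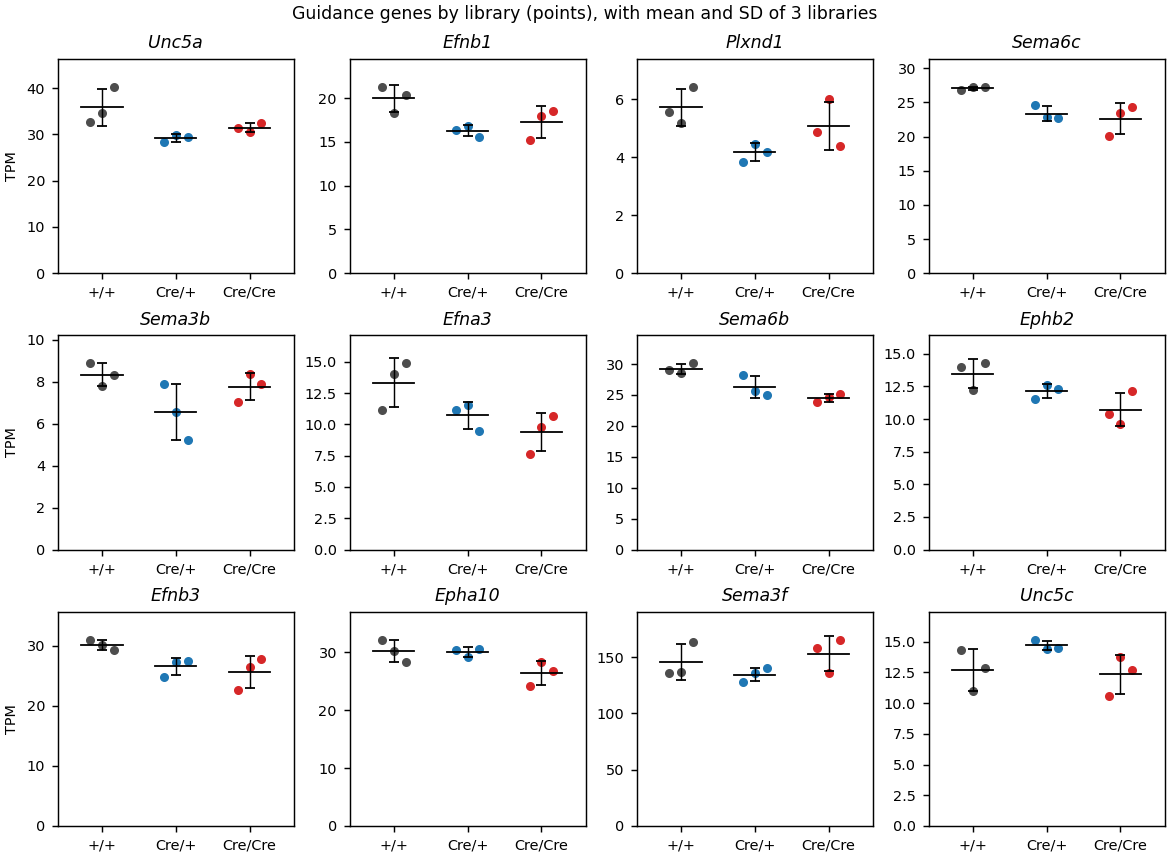
TPM of 12 guidance genes with low p-values, each panel a gene on its own axis from 0, each point 1 library, with the mean (line) and SD (bars) of the 3 libraries of a genotype. In Unc5a the Cre/+ points sit at 28.3 to 30.0 TPM, all below the +/+ points, and in Efna3 the Cre/Cre points sit at 7.67 to 10.6 TPM, all below the +/+ points from 11.1 TPM.

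Efna3, a lipid-anchored ephrin on chr3:89314951-89322879 of mm10, was at 11.1, 14.0 and 14.9 TPM in +/+, 11.1, 11.6 and 9.48 TPM in Cre/+ and 7.67, 9.78 and 10.6 TPM in Cre/Cre. The Cre/Cre mean was 70.3% of the +/+ mean, a log2 difference of -0.47 ± 0.14 with an adjusted p of 0.543 by limma. Sema6b, with a Cre/Cre mean of 24.5 ± 0.617 TPM and a +/+ mean of 29.2 ± 0.793 TPM (SD, n = 3), differed by -0.24 ± 0.09 log2 (adjusted p = 0.624). It had the smallest spread within genotypes of the 65 genes, a residual SD of 0.061 log2.

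Sema6c was at 20.1, 23.4 and 24.4 TPM in Cre/Cre beside 26.9 to 27.3 TPM in +/+, a difference of -0.26 ± 0.09 log2 (adjusted p = 0.647). Ephb2, a receptor of RGC axons from the ventral retina, was at 14.0, 12.2 and 14.3 TPM in +/+, 11.5, 12.6 and 12.3 TPM in Cre/+ and 10.4, 9.66 and 12.1 TPM in Cre/Cre, a difference of -0.31 ± 0.12 log2 between Cre/Cre and +/+ (adjusted p = 0.655). The highest Cre/Cre value of Ephb2, 12.1 TPM, was close to its lowest +/+ value, 12.2 TPM. Efnb3, whose library values are above, differed by -0.23 ± 0.09 log2 (adjusted p = 0.655). These 3 genes, like Efna3 and Sema6b, had all their Cre/Cre values under all their +/+ values.

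RGC markers moved with this comparison. Of the 14, 11 were lower at an unadjusted p under 0.05, beside 5.39% of all tested genes, and the median difference of the 14 was -0.28 log2. The list includes Rbpms, the edited gene, which had the largest difference of the 14, -0.96 log2. In whole retina, fewer cells of a type and less RNA per cell cannot be told apart, and the part of either in the guidance genes was not tested. Cre/Cre replicate 1 also moved with it, since it was the lowest of the 9 libraries for 34 of the 65 guidance genes, while it was the lowest for 38.6% of all tested genes. Without that library 3 guidance genes had an unadjusted p under 0.05, namely Efna3 (-0.35 log2), Sema6b (-0.23 log2) and Ephb2 (-0.29 log2). With Xist as a covariate for sex, 1 of the 65 passed, Ephb2, at -0.38 log2. The share of all tested genes passing in these fits is not given here, so neither count is compared with it.

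**Figure D3:**
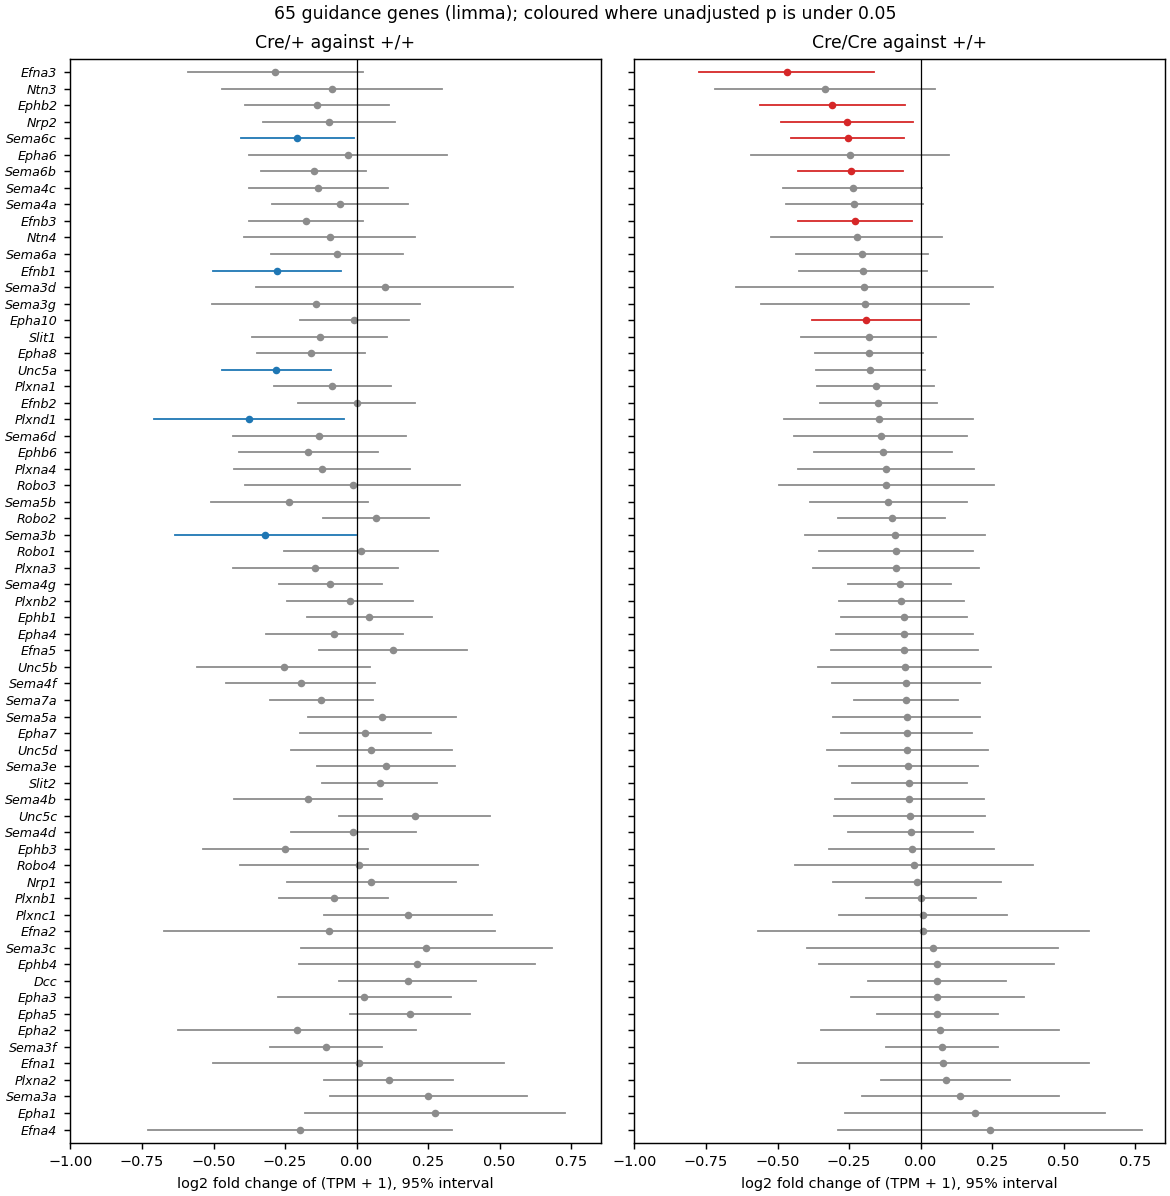
Log2 fold change of TPM + 1 with its 95% interval for the 65 tested guidance genes in Cre/+ (left) and Cre/Cre (right) against +/+, ordered by the right panel, with genes of unadjusted p under 0.05 in colour and the others in grey. The coloured genes, 5 on the left and 7 on the right, all lie below 0, none passed the adjusted limit, and both panels share the same +/+ libraries.

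Cre/Cre and Cre/+ were also compared directly. None of the 65 guidance genes had an unadjusted p under 0.05 by limma, where 6.58% of all genes did (2.38% higher and 4.2% lower), and none passed the adjusted limit. The groups did not overlap for 8 guidance genes, 2 higher and 6 lower in Cre/Cre, beside 12% of all genes (4.76% higher and 7.23% lower). The median difference was -0.06 log2, against -0.03 for all genes, and it was 0.02 without Cre/Cre replicate 1. The SD of the median deviation between libraries of a genotype, 0.08 log2, applies here too. Without Cre/Cre replicate 2 or without replicate 3, 3 genes had an unadjusted p under 0.05, and without Cre/+ replicate 1 there was 1. The share of all genes in these fits is not given here.

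The smallest p in that comparison was that of Epha10, an Eph receptor without kinase activity, at 32.1, 30.2 and 28.3 TPM in +/+, 30.4, 29.1 and 30.6 TPM in Cre/+ and 24.1, 28.3 and 26.8 TPM in Cre/Cre. Its Cre/Cre values were below all Cre/+ values, with a difference of -0.18 ± 0.09 log2 in the fit (adjusted p = 0.740), and they met the +/+ range at 28.3 TPM. Sema3f differed by 0.18 ± 0.09 log2 with the higher mean in Cre/Cre, and its values overlapped. Unc5c was at 10.6, 13.7 and 12.7 TPM in Cre/Cre, below its Cre/+ values, and Robo2 had 1 Cre/Cre value, 44.3 TPM, within its Cre/+ range. Efna4, an ephrin that passed the filter only through its Cre/Cre level, was at 0.880, 0.998 and 0.986 TPM in +/+, 0.961, 0.250 and 1.02 TPM in Cre/+ and 1.78, 1.46 and 0.813 TPM in Cre/Cre, the largest relative spread among the tested members, and its difference is given by these values alone. The 4 others had an adjusted p of 0.740 by limma.

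The base composition of the transcripts moved with these differences. The 65 guidance genes had a median of 55.3% G and C in their longest protein-coding transcript, against 50.3% for the 14861 tested genes with a value. Across the 65 genes, the log2 difference of Cre/+ against +/+ had a Spearman correlation of -0.70 with the G and C share, and -0.59 across all genes. In Cre/Cre against +/+ the correlation was -0.33, the same as across all genes, and in Cre/Cre against Cre/+ it was 0.47 and 0.35. These correlations are across genes measured in the same libraries, which are not independent replicates, so no p is given.

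Short coding stretches show the range of base composition. The following 4 windows of 120 bases come from coding exons of GENCODE transcripts on GRCm38 (the sequence of mm10), on the strand of the gene and 5′ to 3′, with G and C in capitals. Unc5a and Sema6c are among the lower genes in Cre/+. Epha5 and Sema3a are among the higher ones, and both were chosen after their values were seen.
Unc5a, exon 9, chr13:54999622-54999741, plus strand: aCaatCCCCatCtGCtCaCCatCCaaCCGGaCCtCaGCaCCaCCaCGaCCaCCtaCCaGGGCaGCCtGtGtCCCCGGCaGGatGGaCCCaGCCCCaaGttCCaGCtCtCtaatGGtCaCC
Sema6c, exon 21, chr3:95172255-95172374, plus strand: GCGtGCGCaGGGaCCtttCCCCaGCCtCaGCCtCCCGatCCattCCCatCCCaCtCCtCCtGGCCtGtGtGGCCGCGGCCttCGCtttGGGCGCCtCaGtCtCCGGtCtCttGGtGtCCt
Epha5, exon 3, chr5:84331772-84331891, minus strand: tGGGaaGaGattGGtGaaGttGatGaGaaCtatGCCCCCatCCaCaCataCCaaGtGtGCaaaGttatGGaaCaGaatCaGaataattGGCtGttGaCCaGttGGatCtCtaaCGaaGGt
Sema3a, exon 17, chr5:13599148-13599267, plus strand: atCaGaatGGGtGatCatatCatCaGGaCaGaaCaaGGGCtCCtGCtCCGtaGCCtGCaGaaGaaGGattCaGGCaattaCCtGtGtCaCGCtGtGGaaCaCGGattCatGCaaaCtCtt

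The windows hold 61.7%, 66.7%, 43.3% and 48.3% G and C in this order, and the whole transcripts 62.7%, 63.5%, 40.1% and 40.8%. In Cre/+ against +/+ the log2 differences of the 4 genes were -0.28, -0.21, 0.19 and 0.25 in the same order. Sema3a, a secreted repellent, was at 5.85, 4.72 and 4.64 TPM in +/+ and 6.55, 5.79 and 6.27 TPM in Cre/+, and these ranges overlapped. These 4 genes illustrate the relation and were not drawn at random. Ephb4 was higher though rich in G and C (0.21 log2, 58.4%).

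**Figure D4:**
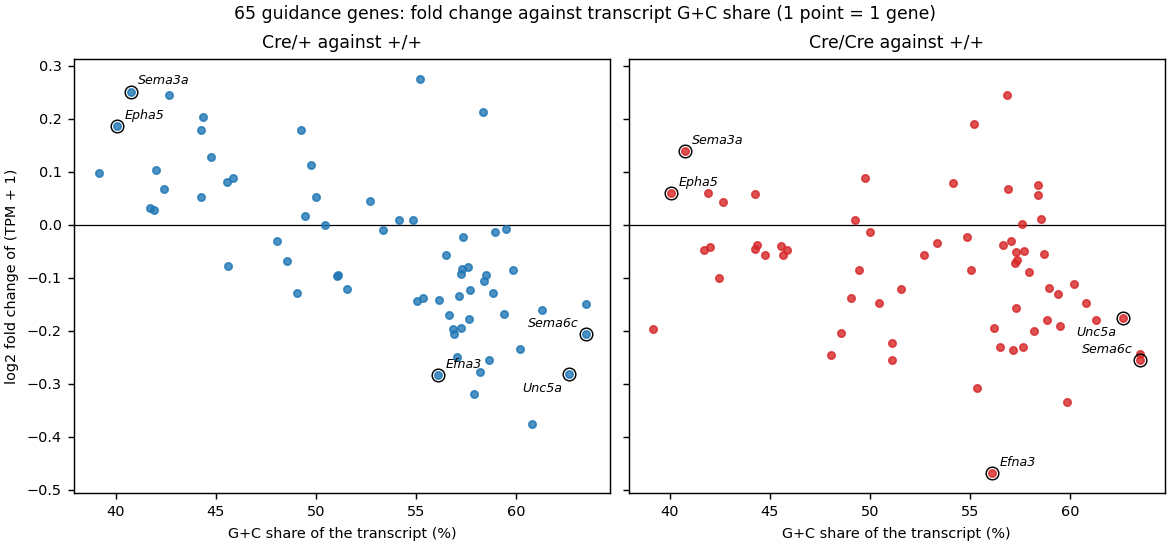
Log2 fold change of TPM + 1 of the 65 guidance genes (1 point per gene) against the percentage of G and C in their transcript, for Cre/+ (left) and Cre/Cre (right) against +/+, with 5 genes ringed and named. On the left the points descend from Epha5 and Sema3a near 40% to Unc5a and Sema6c above 62%, with a Spearman correlation of -0.70, and on the right the correlation is -0.33.

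The relation to base composition also varied between libraries of a genotype. The deviation of a library from the mean of all 9 had a correlation with G and C across the guidance genes of 0.03, 0.43 and 0.57 in the +/+ libraries, -0.42, -0.42 and -0.63 in Cre/+ and 0.36, -0.09 and -0.29 in Cre/Cre. The Cre/+ and +/+ libraries did not overlap in this measure, so it cannot be told apart from genotype there. When a smooth curve of each library on G and C was subtracted, 0 of the 65 genes had an unadjusted p under 0.05 in Cre/+ against +/+ (6.45% of all genes), and their median difference was -0.01 log2. In Cre/Cre against +/+, 5 genes passed after that step, all lower, beside 6.98% of all genes, and they were Robo2, Sema6a, Nrp2, Ephb2 and Efna3. Epha10 alone passed in Cre/Cre against Cre/+, lower, beside 7.55% of all genes.

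**Figure D5:**
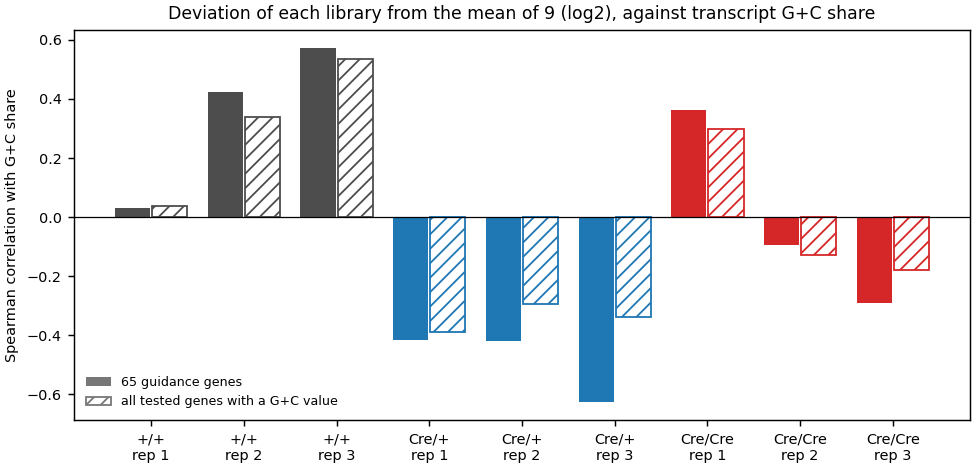
Spearman correlation, across genes, of the deviation of each library from the mean of 9 libraries (log2 scale) with the percentage of G and C of the transcript, for the 65 guidance genes (filled bars) and all tested genes with a value (hatched bars), coloured by genotype. The 3 Cre/+ libraries lie between -0.42 and -0.63 for the guidance genes, the 3 +/+ libraries between 0.03 and 0.57, and Cre/Cre replicate 1 differs in sign from the other Cre/Cre libraries.

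Gene length followed a similar course. Guidance genes are long, with a median span of 46.3 kb against 21 kb for all tested genes. In Cre/+ against +/+, the 32 longer ones had a median difference of 0.04 log2 with 13 below 0, and the 33 shorter ones had -0.13 with 28 below 0. In Cre/Cre against +/+, the 2 groups were closer, at -0.06 and -0.09 log2 with 25 below 0 in each. In Cre/Cre against Cre/+ the order turned. The longer genes had -0.12 log2 with 27 below 0 and the shorter ones -0.02 log2 with 17 below 0. The Spearman correlation of the difference with span had the same sign over all tested genes. It was 0.24 beside 0.53 in guidance genes for Cre/+ against +/+ and 0.11 beside 0.15 for Cre/Cre against +/+. For Cre/Cre against Cre/+ it was -0.18 beside -0.37. Span and base composition were not separated.

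Partners of these proteins were counted in 2 further lists. Of 23 co-receptors and other guidance cues, 1 had an unadjusted p under 0.05 in Cre/+ against +/+ and 1 in Cre/Cre against +/+, beside 10.7% and 6.97% of all tested genes, and both times it was Ryk, a receptor of Wnt proteins in axon guidance. Ryk was at 30.4, 29.1 and 27.2 TPM in +/+, 31.4, 35.5 and 32.7 TPM in Cre/+ and 31.9, 32.8 and 35.1 TPM in Cre/Cre, higher in every knock-in library. Its adjusted p was 0.445 and 0.695 by limma. The next in Cre/+ were Rgmb and Fzd3, with differences of 0.20 and 0.19 log2, and in Cre/Cre L1cam and Flrt1, with -0.18 and -0.23 log2.

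Of 49 effectors that act on the cytoskeleton behind the receptors, 5 had an unadjusted p under 0.05 in Cre/+ against +/+, 2 higher and 3 lower, and 5 in Cre/Cre against +/+, all lower. Each is 10.2% of the list, beside 10.7% of all tested genes in Cre/+ and, for lower genes, 5.39% in Cre/Cre. Cfl1, the actin-severing cofilin, was at 752, 748 and 725 TPM in +/+, 643, 649 and 670.2 TPM in Cre/+ and 614, 650.2 and 658 TPM in Cre/Cre. It was lower in all 6 knock-in libraries, with adjusted p-values of 0.404 and 0.548. Dpysl5, a collapsin response mediator, was at 39.8, 33.0 and 35.7 TPM in +/+ and 25.1, 30.5 and 30.8 TPM in Cre/Cre, a difference of -0.32 ± 0.10 log2 (adjusted p = 0.543). The others with the lowest p were Rock1 (0.27 log2) and Dpysl4 (-0.23 log2) in Cre/+ and Evl (-0.18 log2) in Cre/Cre. In no comparison did a gene of either list pass the adjusted limit.

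The spread of guidance genes between libraries of a genotype was that of other genes, with a median residual SD of 0.136 log2 against 0.130 for all tested genes. It was widest for Efna2, at 3.45, 7.02 and 7.49 TPM in +/+, 3.95, 6.72 and 5.49 TPM in Cre/+ and 4.47, 5.47 and 7.72 TPM in Cre/Cre, a residual SD of 0.403 log2. The next were Efna1 (0.366 log2) and Efna4 (0.291 log2), so the 3 widest were all ephrin-A genes. Efna2, Efna1 and Efna4 had low means of 5.75, 4.41 and 1.02 TPM. The other ephrin-A genes were narrower, Efna3 at 0.191 log2 and Efna5 at 0.136 log2, the median of the guidance genes.

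Several members lie close together in the genome, and close neighbours could differ widely in level. Efna1, Efna3 and Efna4 follow each other on chromosome 3 with gaps of 34.0 and 10.5 kb and had means of 4.41, 11.1 and 1.02 TPM. On chromosome 9, Sema3b and Sema3f are 72.3 kb apart, and the second was 19.5 ± 3.69 times the first (SD over 9 libraries). Robo3 and Robo4, 2.02 kb apart and on opposite strands, were at similar means of 2.13 and 1.92 TPM. Robo1 and Robo2 on chromosome 16 kept the steadiest ratio of the neighbouring pairs relative to its size, 5.67 ± 0.302, with Robo2 the higher in each library.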

How the data were processed

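Whole retinas at P42 were profiled by strand-specific, poly(A)-selected RNA-Seq with 3 libraries per genotype. Groups and replicate numbers were taken from the labels. According to the labels and the study's methods, reads were trimmed with Trimmomatic, aligned to mm10 with HISAT2 and quantified with StringTie. Versions, annotation and strand setting are not given in the sources used here. The TPM that the authors deposited are scaled by transcript length and to a fixed sum per library, so a gene that takes more of a library lowers the rest. The deposited FPKM served in an alternative, and the deposited coverage, which is the mean read depth over a gene, only gave the amount of aligned sequence. The tables hold no counts, so a count model was not run.

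TPM was summed by gene name. Genes with a mean of at least 1 TPM were tested with limma 3.58.1 (R 4.3.3), trended and robust, on log2(TPM + 1), with 9 libraries in 1 model of genotype (6 residual degrees of freedom), 3 contrasts and Benjamini-Hochberg adjustment over all genes. A fold change is on this scale and is understated for low genes. With 3 against 3 libraries an exact permutation test cannot go below p = 0.1, so none was run. G and C shares came from GENCODE transcripts on GRCm38, and 14861 tested genes had one. Data were simulated for Cre/Cre against +/+ over 15198 genes, with 200 changed genes. The fit recovered 176 of those changed 2-fold, 110 at 1.5-fold and 0 at 1.2-fold, with 8, 7 and 0 false calls. The simulated noise was independent between genes and libraries, and the fold was set on the log2(TPM + 1) scale. Deviations shared by many genes of a library were not simulated, so these figures may be too favourable for the real data.

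The members, lists and tests were chosen with earlier results of these data known. Library values are given for the 5 members with the smallest p in each contrast, for the highest of each family and the 10 highest. Members below the filter, those without overlap between +/+ and Cre/Cre, and the 3 partner genes of smallest p in each list and contrast with +/+ are named. Others were named after their values were seen. Each library is 1 mouse. Alternatives were another pseudocount, other filters, a replicate block, Xist as a covariate, only the genotypes compared, FPKM, median-ratio scaling, no robust prior and each library left out. Adjustment for G and C (lowess, span 0.3) was added after the data were seen.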

Additional observations from a re-analysis of the deposited data

How the results depend on the processing

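In all 3 comparisons, 0 guidance genes passed the adjusted limit under each of the 19 alternatives. Under the alternatives, the share of all tested genes with an unadjusted p under 0.05 is given only for the adjustment for G and C. Shifts in the counts below are therefore not read as particular to the guidance genes. The number of guidance genes at an unadjusted p under 0.05 was less stable. For Cre/+ against +/+ (5 genes) it was 3 with the replicate block, 2 with Xist as a covariate, 9 with median-ratio scaling and 0 after adjustment for G and C, and leaving out single libraries gave 1 to 8, with 1 without +/+ replicate 3 or Cre/+ replicate 3, 2 without +/+ replicate 1, 3 without Cre/+ replicate 2 and 8 without Cre/Cre replicate 1. For Cre/Cre against +/+ (7 genes) it was 1 with Xist and 11 with FPKM, and 3 to 9 with single libraries left out, the 3 without Cre/Cre replicate 1. For Cre/Cre against Cre/+ (0 genes) it was 1 without the filter, with the replicate block, with Xist, with median-ratio scaling and after adjustment for G and C, and 0 to 3 with single libraries left out, 3 of them without Cre/Cre replicate 2 or without replicate 3. The median difference in that comparison ran from -0.11 to 0.0158 log2 with single libraries left out, and 0.0158 was without Cre/Cre replicate 1. After adjustment for G and C the differences of Sema6b and Sema4g in Cre/+ against +/+ turned to 0.027 and 0.0168 log2. The cause was not tested. Replicate numbers share no stated litter, and same-numbered libraries did not deviate together, with correlations from -0.116 to 0.128, so the block is no pairing by design. The tables give no counts, and the deposited coverage of low genes was not examined, so the depth behind them is not given.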
